A study of Mus musculus with 18 samples.

Results

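Liver RNA-seq was used to follow 10 genes of bile acid synthesis and its feedback control. They are the synthesis enzymes Cyp7a1, Cyp8b1, Cyp27a1, Cyp7b1, Hsd3b7 and Akr1d1, the conjugation enzymes Slc27a5 and Baat, and the nuclear receptors Nr1h4 (FXR) and Nr0b2 (SHP). They were chosen by gene symbol, make up 10 of the 19057 genes of the deposited table, and all 10 were among the 10204 genes tested. The data came from 18 libraries of liver mRNA from ICR mice, an outbred stock (male, by the study's methods), at 10 weeks of age, in 6 groups of 3 libraries. The Con group ate regular diet and was injected with saline. The HS group ate a high-fat diet (HFD) from week 3 to week 10 of life and was given 1 dose of streptozotocin (STZ), a toxin of the insulin-producing cells of the pancreas, at 85 mg/kg at 5 weeks. The A10-FMT and Con-FMT mice had the same diet and STZ dose, and daily from 5 to 7 weeks of age they received small-intestine microbiota, pooled from donor mice that had been dosed with 10 mg/kg of alginate oligosaccharide (AOS) or with water. The A10 (AOS at 10 mg/kg) and HS+A10 (HFD, STZ and AOS at 10 mg/kg) groups are known from their labels alone, and the study's text does not describe them as liver groups. No source used here says that the 3 libraries of a group came from 3 separate mice, so the p-values measure the spread between these libraries.

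Bile acids are made from cholesterol in hepatocytes. In the classical pathway Cyp7a1 adds the first hydroxyl group and sets the rate, and Cyp8b1 decides how much of the product becomes cholic acid. In the alternative pathway Cyp27a1 oxidises the side chain and Cyp7b1 hydroxylates the resulting oxysterols. Hsd3b7 and Akr1d1 then reshape the steroid rings in both pathways, and Slc27a5 and Baat couple the finished acid to taurine or glycine. Bile acids that return to the liver bind FXR, which induces SHP, and SHP represses Cyp7a1 and Cyp8b1. Cyp7a1 mRNA also follows the time of day and feeding.

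The proximal promoters of the receptor pair and of Cyp8b1 are shown because these genes stand at the ends of that feedback loop. Sequences came from RefSeq for build GRCm38.p6, which held 6 of the 10 genes (Akr1d1, Cyp27a1, Cyp8b1, Hsd3b7, Nr0b2 and Nr1h4). Each window runs 5′ to 3′ on the strand of the gene from 250 bases before to 50 bases after the annotated start. The Nr0b2 window lies on the plus strand at chr4:133553126-133553425, the Cyp8b1 window on the minus strand at chr9:121916256-121916555 and the Nr1h4 window on the minus strand at chr10:89506609-89506908. Capitals mark matches on either strand to the motifs named after the sequences.
Nr0b2: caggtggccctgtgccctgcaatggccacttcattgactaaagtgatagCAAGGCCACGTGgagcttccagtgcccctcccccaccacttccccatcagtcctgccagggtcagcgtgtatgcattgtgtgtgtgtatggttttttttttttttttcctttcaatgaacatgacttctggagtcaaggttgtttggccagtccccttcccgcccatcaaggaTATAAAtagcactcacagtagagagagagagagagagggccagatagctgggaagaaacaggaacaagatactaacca
Cyp8b1: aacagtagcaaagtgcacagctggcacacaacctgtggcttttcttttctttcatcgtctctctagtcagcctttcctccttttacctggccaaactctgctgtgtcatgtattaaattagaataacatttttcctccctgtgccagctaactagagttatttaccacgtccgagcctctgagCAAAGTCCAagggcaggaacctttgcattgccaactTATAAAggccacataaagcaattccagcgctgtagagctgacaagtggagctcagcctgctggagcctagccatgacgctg
Nr1h4: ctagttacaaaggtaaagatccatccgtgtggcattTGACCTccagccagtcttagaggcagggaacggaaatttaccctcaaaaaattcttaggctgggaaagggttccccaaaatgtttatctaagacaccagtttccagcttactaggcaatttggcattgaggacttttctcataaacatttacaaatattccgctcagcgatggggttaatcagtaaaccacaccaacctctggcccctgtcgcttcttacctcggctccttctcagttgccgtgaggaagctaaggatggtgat
The search covered 8 motifs on both strands. In the Nr0b2 window the capitals hold CAAGGCCA, a form of the site bound by LRH-1 (Nr5a2), at bases 50 to 57, and the E-box CACGTG at bases 56 to 61, which overlaps it by its first bases. A TATAAA box follows at bases 223 to 228. CAAGGCCA was found in 2.4% of the 32851 promoters of the same length, CACGTG in 7.15% and TATAAA in 13.6%. The Cyp8b1 window holds CAAAGTCCA, a form of the HNF4 site found in 0.475% of promoters, at bases 184 to 192, and TATAAA at bases 220 to 225. The Nr1h4 window holds 1 nuclear receptor half-site, AGGTCA, read on the opposite strand as TGACCT at bases 37 to 42. Akr1d1 holds AGGTCA at 2 positions, and 16.3% of all promoters hold it. The inverted repeat of AGGTCA with 1 base between its arms (in 0.00913% of all promoters), CAAGGTCA (1.56%) and the D-box TTATGTAA (0.938%) were in none of the 6 windows. The RefSeq start of Nr1h4 lies inside the gene as GENCODE draws it (chromosome 10, 89454234 to 89533585, minus strand). Matches are descriptions of letters, not of bound sites.

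Some libraries stood apart. The RPKM (reads of a gene divided by its length and by the reads of the library) of a library summed to between 692818 and 806937. Of the genes whose other pair of libraries differed by at least 1 on the log2 scale, Con replicate 3 lay between its fellows for 97.9% and A10 replicate 3 for 95.6%, against 54.7% to 74.6% for libraries of the 4 groups on HFD and STZ. Of the 10 genes followed here, 8 lay between in each of these libraries. A library that lies between its fellows lowers the spread of its group and of the shared fit, so calls were also made on 2 libraries each of Con and A10. Such a library also does not widen the range of its group. Statements below on overlap with Con or A10, and the shares over all genes beside them, thus rest largely on 2 libraries of each. Con-FMT replicate 3 held 3.46% of its RPKM in 14 pancreas enzyme genes, against at most 0.00675% in any other library. The 6 hepatocyte markers (Alb, Ttr, Apoa1, Serpina1a, Tat and Cps1) were detected in every library, with sums of 32359 to 54957 RPKM. Macrophage markers (6 of 6 measured) summed to 44.2 to 55.5 RPKM in A10-FMT and 63 to 99.8 in HS, stellate cell markers (5 of 5) to 67.4 to 78.3 in Con and 107 to 156 in HS, endothelial markers (5 of 5) to 38.9 to 44.2 in HS and 51.4 to 61.3 in HS+A10, and cholangiocyte markers (4 of 4) to 2.09 to 7.14 over all libraries. Dcn alone read 61.4 to 71.6 RPKM in Con and 99 to 140 in HS, which is most of the stellate sums. Lrat and Reln were also higher in HS than in Con without overlap, while Des and Col1a1 overlapped. The part of all these markers in the results was not tested. In bulk liver, fewer cells of a type and less RNA per cell cannot be told apart.

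All 10 genes were well expressed. Per length, Cyp7b1 had the highest mean over the 18 libraries, 286 RPKM, higher than 97.1% of tested genes. Cyp7a1 had the lowest, 25 RPKM, still above 78.6% of tested genes. Cyp7a1 was also the most variable of the 10, with an 8.53-fold range between libraries (5.36 to 45.7 RPKM) and a within-group SD of 0.69 on the log2 scale. Baat was the steadiest, with a 1.38-fold range (128 to 177 RPKM) and a within-group SD of 0.11. A moderated F test over the 6 groups (limma) was passed by 4 of the 10 genes, against 56.1% of all tested genes. They were Nr1h4 (adjusted p = 0.00886), Cyp27a1 (0.0137), Cyp7b1 (0.0181) and Cyp8b1 (0.0238). The adjusted p of the other 6 lay between 0.0686 (Hsd3b7) and 0.579 (Slc27a5), with Cyp7a1 at 0.142 and Nr0b2 at 0.323. Over 9 comparisons between pairs of groups, 6 of 90 tests were called, in 4 genes (Cyp8b1, Hsd3b7, Cyp27a1 and Nr1h4), against 16.9% of the tests of all genes.

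**Figure D1:**
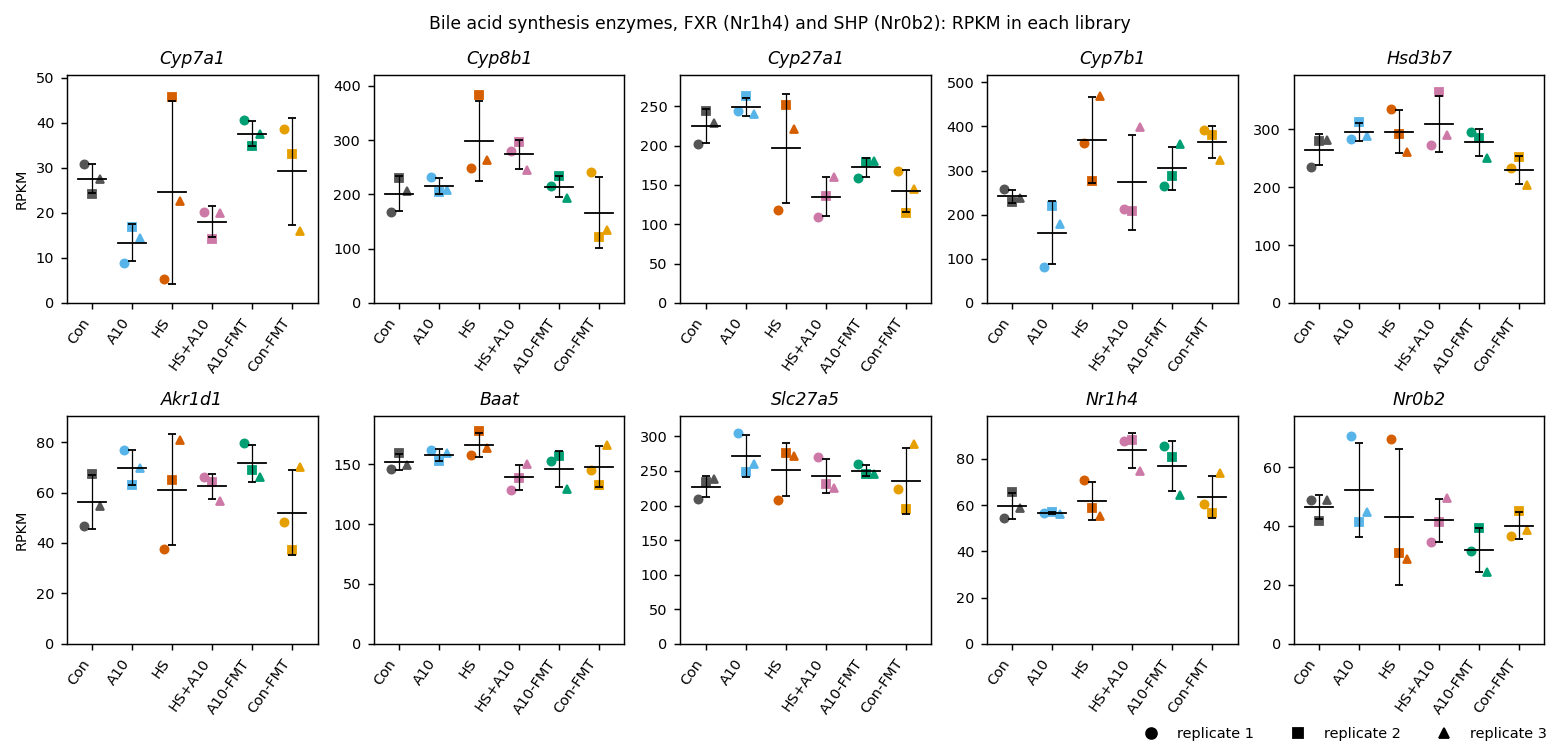
RPKM of the 10 genes (vertical axes, each from 0) in the 18 libraries, by group; symbols mark the replicate, lines the mean and bars the SD (n = 3). Cyp7a1 spans 5.36 to 45.7 RPKM within HS alone, Nr1h4 is highest in HS+A10, and Baat stays between 128 and 177 RPKM.

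Cyp7a1, the rate-limiting enzyme of the classical pathway (chromosome 4, 6265612 to 6275633, minus strand, GRCm38), was measured at 30.7, 24.3 and 27.5 RPKM in Con and at 8.92, 16.9 and 14.3 RPKM in A10. The HS libraries read 5.36, 45.7 and 22.5 RPKM and those of HS+A10 20.1, 14.2 and 19.9 RPKM. In A10-FMT the values were 40.5, 34.8 and 37.4 RPKM and in Con-FMT 38.7, 33.1 and 15.9 RPKM. HS thus held both the lowest and the highest of the 18 values, and the A10 and A10-FMT libraries did not overlap those of Con, on opposite sides. In order of the group means the levels ran A10 (13.4 ± 4.08 RPKM, SD, n = 3), HS+A10 (18.1 ± 3.35), HS (24.5 ± 20.3), Con (27.5 ± 3.23), Con-FMT (29.2 ± 11.9) and A10-FMT (37.6 ± 2.83), and every pair of neighbours in that order overlapped. None of the 9 comparisons of Cyp7a1 passed the threshold. The lowest group, A10, was not compared with the highest, A10-FMT. The change in HS against Con was -0.57 on the log2(RPKM + 1) scale (SE 0.50, 95% interval -1.64 to 0.50, adjusted p = 0.44), and it was 0.22 without HS replicate 1. A10-FMT against HS gave 1.01 (SE 0.50, 95% interval -0.06 to 2.08, adjusted p = 0.15), and this passed only without HS replicate 2 (1.66, adjusted p = 0.0242). A10 against Con gave -1.02 (SE 0.50, adjusted p = 0.382), Con-FMT against HS 0.57 (SE 0.50, adjusted p = 0.438) and A10-FMT against Con-FMT 0.44 (SE 0.50, adjusted p = 0.593). With only the compared groups in the fit, A10-FMT against Con passed (0.44, adjusted p = 0.035, against 0.615 with all 18 libraries).

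Cyp8b1, the 12-alpha hydroxylase (chromosome 9, 121914356 to 121916305, minus strand), was at 168, 231 and 206 RPKM in Con and at 232, 205 and 208 RPKM in A10. HS read 249, 383 and 263 RPKM and HS+A10 280, 296 and 244 RPKM. A10-FMT read 216, 234 and 194 RPKM and Con-FMT 241, 122 and 135 RPKM. All 6 libraries of HS and HS+A10 exceeded every other library, and the lowest values were those of Con-FMT replicates 2 and 3, while Con-FMT replicate 1 lay above all Con libraries. Group means ran from 166 ± 65.2 RPKM in Con-FMT to 298 ± 73.8 RPKM in HS (SD, n = 3), a 1.79-fold range, and among neighbours in the order only A10 and HS+A10 did not overlap. Cyp8b1 fell in Con-FMT against HS by 0.88 on the log2 scale (SE 0.21, adjusted p = 0.00861), with no overlap between the libraries. The call held without Con-FMT replicate 3, the library with pancreas transcripts (-0.77, adjusted p = 0.0313), and in 16 of 18 alternatives. It was lost with only the compared groups in the fit (adjusted p = 0.105) and at the study's threshold of an adjusted p of at most 0.001 with a log2 change of at least 1, which none of the 6 calls among the 10 genes passed. In HS against Con the groups did not overlap either, but the change of 0.55 (SE 0.21) was not called (adjusted p = 0.0841). A10-FMT against HS gave -0.45 (SE 0.21, adjusted p = 0.132).

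The amount of Cyp8b1 relative to Cyp7a1 differed widely between libraries. Their RPKM ratio was 5.47, 9.51 and 7.48 in Con, 26, 12.1 and 14.5 in A10 and 46.4, 8.38 and 11.7 in HS. It was 14, 20.9 and 12.3 in HS+A10. The transplant groups had ratios of 5.34, 6.71 and 5.17 (A10-FMT) and 6.23, 3.69 and 8.51 (Con-FMT). All 6 libraries with AOS dosing lay above the 9 libraries of Con, A10-FMT and Con-FMT, while HS spanned both ranges.

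Cyp27a1, the mitochondrial sterol 27-hydroxylase (chromosome 1, 74713574 to 74737892, plus strand), was at 202, 244 and 228 RPKM in Con and at 244, 263 and 241 RPKM in A10. HS read 118, 251 and 220 RPKM and HS+A10 110, 136 and 160 RPKM. A10-FMT read 158, 179 and 180 RPKM and Con-FMT 167, 114 and 145 RPKM. The libraries of HS+A10, A10-FMT and Con-FMT all lay below those of Con and A10, and HS replicate 1 lay with the low groups. In the order of means, from 135 ± 25.1 RPKM in HS+A10 to 249 ± 12 RPKM in A10, all neighbours overlapped. Cyp27a1 fell in HS+A10 against A10 by 0.89 (SE 0.22, adjusted p = 0.00949). This held on 2 libraries each of Con and A10 (-0.92, adjusted p = 0.04) and was lost in 2 of 17 alternatives, without HS+A10 replicate 1 (-0.75, adjusted p = 0.0512) and at the study's threshold. It also fell in Con-FMT against Con by 0.67 (SE 0.22, adjusted p = 0.0346), and this call was lost in 8 of 18 alternatives, among them on 2 libraries each of Con and A10 (-0.65, adjusted p = 0.109) and without Con replicate 2 or 3 or Con-FMT replicate 2 or 3 (adjusted p of 0.098, 0.0882, 0.124 and 0.062). HS against Con gave -0.26 (SE 0.22, adjusted p = 0.423).

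Cyp7b1, the oxysterol 7-alpha hydroxylase (chromosome 3, 18071950 to 18243338, minus strand), was at 258, 230 and 237 RPKM in Con and at 80.4, 220 and 178 RPKM in A10. HS read 363, 276 and 469 RPKM and HS+A10 212, 208 and 398 RPKM. A10-FMT read 266, 288 and 360 RPKM and Con-FMT 391, 382 and 323 RPKM. A10 was lowest (160 ± 71.7 RPKM) and did not overlap Con, and HS (369 ± 96.5 RPKM) and Con-FMT (365 ± 36.5 RPKM) were highest. Although the F test over all groups was passed, none of the 9 pairs of groups compared was called. The lowest group, A10, was not compared with HS or Con-FMT, the highest. HS against Con gave 0.58 (SE 0.31, adjusted p = 0.2), A10 against Con -0.71 (SE 0.31, adjusted p = 0.329) and HS+A10 against A10 0.82 (SE 0.31, adjusted p = 0.0745). Cyp7b1 exceeded Cyp7a1 in every library, by 6.04-fold (HS replicate 2) to 67.7-fold (HS replicate 1).

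Of the ring-modifying and conjugating enzymes, 1 was called, in 1 comparison. Hsd3b7, the C27 3-beta-hydroxysteroid dehydrogenase (chromosome 7, 127800604 to 127803802, plus strand), was at 335, 292 and 261 RPKM in HS and at 232, 251 and 204 RPKM in Con-FMT, without overlap, and fell between them by 0.37 (SE 0.12, adjusted p = 0.0457). That call was lost in 11 of 18 alternatives, among them on 2 libraries each of Con and A10 (adjusted p = 0.0719), without Con-FMT replicate 1 or 3 (0.0812 and 0.147) and without HS replicate 1 or 2 (0.169 and 0.0887). Over all 18 libraries Hsd3b7 ran from 204 to 364 RPKM. Its exons overlap those of Gm49388 on the same strand and of 9430064I24Rik on the other, neither of which the table lists, so its reads may be shared. Akr1d1, the 5-beta reductase that gives bile acids their bent A/B rings (chromosome 6, 37530173 to 37568815, plus strand), ran from 37.4 to 80.9 RPKM, with group means between 52 ± 16.8 RPKM in Con-FMT and 71.5 ± 7.27 RPKM in A10-FMT. Slc27a5, the bile acid CoA ligase (chromosome 7, 12988346 to 12998192, minus strand), ran from 195 to 306 RPKM, and its group means between 227 and 272 RPKM differed by at most 1.19-fold. Baat, which joins the activated acid to an amino acid (chromosome 4, 49489422 to 49506557, minus strand), had group means between 139 and 166 RPKM. Akr1d1, Slc27a5 and Baat were called in none of the 9 comparisons. Baat did not overlap between HS+A10 (128, 139 and 150 RPKM) and HS (157, 177 and 163 RPKM), with a change of -0.26 (SE 0.10, adjusted p = 0.113).

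Nr1h4, the bile acid receptor FXR, was at 54.4, 65.5 and 58.6 RPKM in Con and at 56.7, 56.9 and 56.3 RPKM in A10. HS read 70.9, 58.9 and 55.1 RPKM and HS+A10 87.7, 88.2 and 74.9 RPKM. A10-FMT read 85.4, 80.7 and 64.5 RPKM and Con-FMT 60.5, 56.4 and 73.9 RPKM. All HS+A10 libraries and 2 of the 3 A10-FMT libraries exceeded every library of the other 4 groups. Nr1h4 was higher in HS+A10 than in A10 by 0.55 (SE 0.13, adjusted p = 0.0066), a 1.46-fold difference that was called in 16 of 17 alternatives and lost at the study's threshold. Nr1h4 also rose in HS+A10 against HS by 0.44 (SE 0.13, adjusted p = 0.0477), but the call was lost in 10 of 17 alternatives, among them on 2 libraries each of Con and A10 (0.0891) and without HS replicate 2 or 3 or HS+A10 replicate 1 or 2 (adjusted p of 0.142, 0.175, 0.165 and 0.13). In HS against Con its change was 0.05 (SE 0.13, 95% interval -0.22 to 0.31, adjusted p = 0.827) and it turned to -0.14 with each library scaled to the same median. A10-FMT against HS gave 0.31 (SE 0.13, adjusted p = 0.0819), A10-FMT against Con 0.36 (SE 0.13, adjusted p = 0.0704) and A10-FMT against Con-FMT 0.27 (SE 0.13, adjusted p = 0.152). The first of these was called in 5 of 18 alternatives, the next in 4 of 18 and the last in 2 of 18, and both comparisons with HS and Con passed under each of the 3 other scalings.

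Nr0b2, the repressor SHP (chromosome 4, 133553376 to 133556536, plus strand), was at 48.7, 41.8 and 48.7 RPKM in Con and at 70.6, 41.5 and 44.7 RPKM in A10. HS read 69.5, 30.8 and 28.8 RPKM and HS+A10 34.7, 41.5 and 49.5 RPKM. A10-FMT read 31.6, 39.4 and 24.5 RPKM and Con-FMT 36.5, 45.3 and 38.7 RPKM. In A10 and in HS, 1 library (replicate 1 of each) was far above its fellows, and A10-FMT lay below Con without overlap. Group means ran from 31.8 ± 7.45 RPKM in A10-FMT to 52.3 ± 15.9 RPKM in A10 (SD, n = 3), all neighbours overlapped, and Nr0b2 was called in none of the comparisons. Its change in A10-FMT against Con was -0.55 (SE 0.28, 95% interval -1.14 to 0.04, adjusted p = 0.207), in HS against Con -0.22 (SE 0.28, adjusted p = 0.601) and in HS+A10 against HS 0.06 (SE 0.28, adjusted p = 0.917).

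Nr0b2 and Cyp7a1 stood at opposite ends in the libraries that were most extreme. HS replicate 1 and A10 replicate 1 had the lowest Cyp7a1 of all 18 libraries (5.36 and 8.92 RPKM) and the highest Nr0b2 (69.5 and 70.6 RPKM). The ratio of Cyp7a1 to Nr0b2 was 0.0771 and 0.126 in these, against 1.48 in HS replicate 2 and 1.53 in A10-FMT replicate 3. The library lowest in Cyp7a1 was the one highest in Nr0b2 in 3 of the 6 groups (A10, HS and A10-FMT), and not in Con, HS+A10 or Con-FMT. With so few libraries in a group such a match is frequent without any link, and a link was not tested. HS replicate 1 was also the lowest of its group in Cyp8b1, Cyp27a1, Akr1d1, Baat and Slc27a5, and the highest in Hsd3b7 and Nr1h4.

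**Figure D2:**
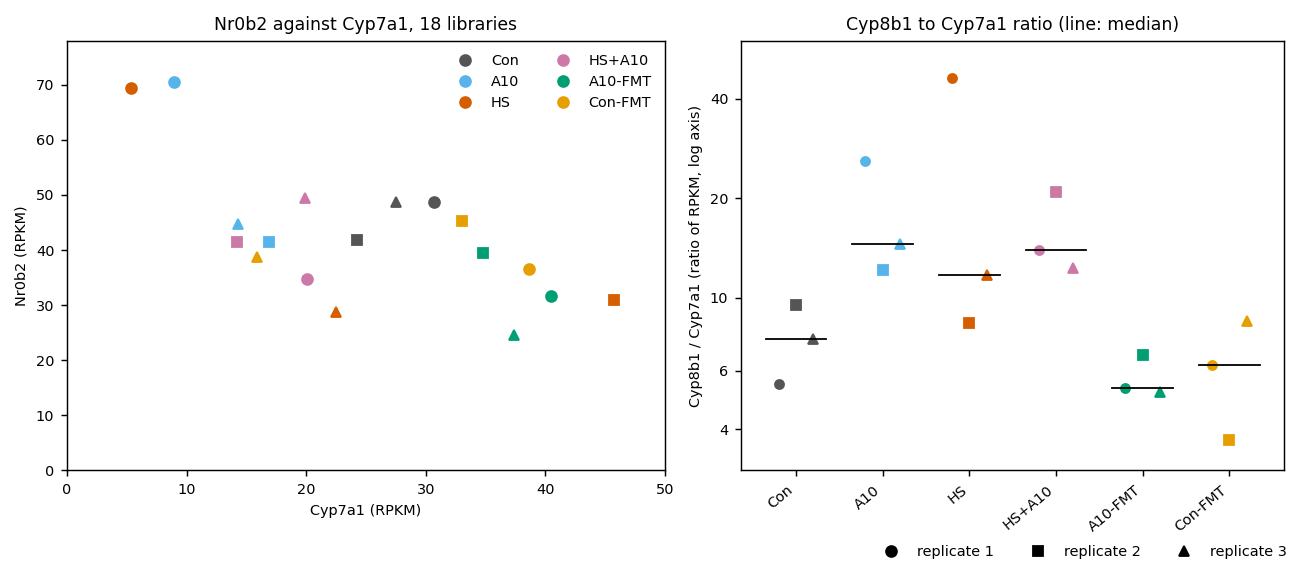
Left, Nr0b2 against Cyp7a1 in the 18 libraries (both axes in RPKM, colour by group, symbol by replicate); right, the ratio of Cyp8b1 to Cyp7a1 in each library on a log axis, with the group median as a line. HS replicate 1 and A10 replicate 1 lie alone at the upper left, with Nr0b2 at 69.5 and 70.6 RPKM, and have the highest ratios, 46.4 and 26.

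The counts over the 10 genes are set beside those over all genes. The shares of called genes are at an adjusted p under 0.05. For the counts at an unadjusted p under 0.05, here and for the AOS groups, no share over all genes was computed. For the HFD and STZ model, HS against Con, limma called 0 of 10 (1 at an unadjusted p under 0.05), against 17.7% of all tested genes (15.9% higher and 1.87% lower), and 2 of 10 did not overlap, against 36.8%. The median change was 0.10 over the 10 genes and 0.14 over all genes. Other scalings brought the latter to -0.00 (quantile normalization) and -0.01 (equal medians), and the 1618 higher and 191 lower genes became 486 and 390, or 398 and 486. A change of a gene near the median over all genes is thus about as large as this shift. For the transplants, A10-FMT against HS called 0 of 10 (1 at an unadjusted p under 0.05), against 23.1% (2.09% higher and 21% lower), with medians of -0.10 and -0.16, and 2 of 10 did not overlap, against 37.4%. Here 213 higher and 2145 lower genes became 573 and 541 with quantile normalization, and 639 and 516 with equal medians. Con-FMT against HS called 2 of 10, Cyp8b1 and Hsd3b7, both lower, against 23.6% (4.61% higher and 19% lower), with medians of -0.14 and -0.12, and 2 of 10 did not overlap, against 35%. The 470 higher and 1943 lower genes became 827 and 1026, and 858 and 1240. A10-FMT against Con-FMT compared recipients of the pool from AOS-dosed donors with recipients of the pool from water-dosed donors. As the donors of each group were pooled, AOS dosing cannot be told apart from another difference between the pools. This comparison called 0 of 10 (2 at an unadjusted p under 0.05), against 18.8%, and 0 of 10 did not overlap, against 31.5%. The 686 higher and 1228 lower genes became 1147 and 971, and 1302 and 958. None of these shares, counted in either direction, exceeded the one over all genes. Counted as lower only, the 2 of 10 in Con-FMT against HS stood close to the 19% over all genes. A10-FMT against Con called 0 of 10 (1 at an unadjusted p under 0.05), against 14.3%, though 5 of 10 did not overlap, against 32.1%. Con-FMT against Con called 1 of 10, Cyp27a1, against 25.8%, and 2 of 10 did not overlap, against 39.4%. The comparisons with HS share its 3 libraries, and those with Con share theirs.

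The groups dosed with AOS were compared in the same way. A10 against Con called 0 of 10 (1 at an unadjusted p under 0.05, Cyp7b1), against 0.0686% or 7 of all tested genes, while 4 of 10 did not overlap, against 24.8%: Cyp7a1 and Cyp7b1 lower in A10, and Hsd3b7 and Slc27a5 higher. HS+A10 against HS called 1 of 10, Nr1h4, against 7.32%, and 2 of 10 did not overlap, against 27.4%. Its 301 higher and 446 lower genes became 601 and 452, and 579 and 356. HS+A10 against A10 called 2 of 10, Nr1h4 and Cyp27a1, against 20.9%, and 4 of 10 did not overlap, against 43%. Its 1388 higher and 743 lower genes became 1294 and 1100, and 1243 and 1151. Whether the change on HFD and STZ differed with AOS was tested by the difference of both changes, and limma called 0 of 10 (2 at an unadjusted p under 0.05, Baat and Nr1h4), against 0.0098% or 1 of all tested genes. That difference was 0.50 for Nr1h4 (SE 0.18, adjusted p = 0.251) and 1.00 for Cyp7a1 (SE 0.71, adjusted p = 0.563). Without HS replicate 1, Cyp27a1 passed this test, as 1 of 118 genes called among 10190 tested.

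**Figure D3:**
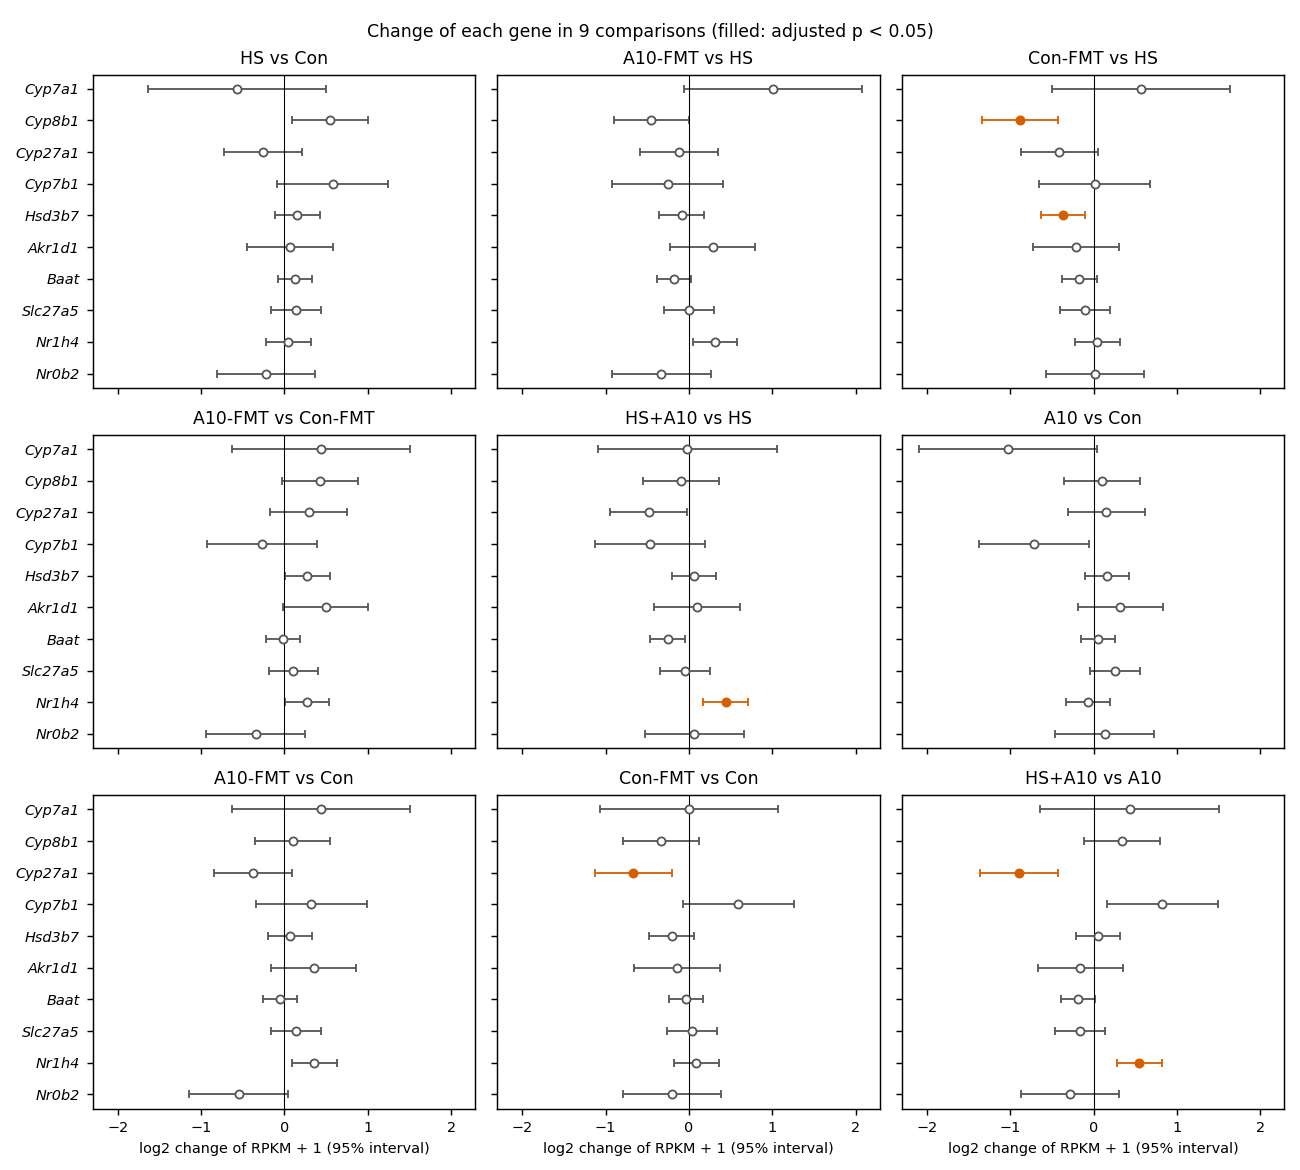
Log2 change of RPKM + 1 for each gene in 9 comparisons, with its 95% interval from limma; filled orange points were called at an adjusted p under 0.05. Filled are 6 of 90 points, for Cyp8b1, Hsd3b7, Cyp27a1 and Nr1h4, and the widest intervals are those of Cyp7a1.

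Other genes of the pathway were called as well. Of 12 tested genes for side chain shortening, oxysterol hydroxylation, 6-hydroxylation and electron supply, 4 rose and 1 fell in HS against Con (3 to 5 called under the other scalings). Among all tested genes 17.7% were called on the deposited RPKM, and 876 to 2175 of 10204 under the other scalings. Amacr, the racemase before peroxisomal oxidation of the side chain, rose by 0.61 (adjusted p = 0.000845), Scp2, the peroxisomal thiolase and sterol carrier, by 0.43 (0.00292, up to 0.069 under the other scalings) and Hsd17b4, the bifunctional enzyme between them, by 0.54 (0.00864). Cyp2c70, which makes the 6-hydroxylated muricholic acids of mice and was named after its values were seen, fell by 1.33 (adjusted p = 0.0109). It read 618, 590 and 596 RPKM in Con, 438, 564 and 556 RPKM in A10, 164, 196 and 419 RPKM in HS, 72.7, 73.3 and 156 RPKM in HS+A10, 176, 162 and 215 RPKM in A10-FMT and 299, 409 and 428 RPKM in Con-FMT, so that the libraries of all other groups, A10 included, were below those of Con, and the 12 on HFD and STZ also below those of A10. Cyp2c70 also fell in HS+A10 against HS by 1.33 (adjusted p = 0.0207) and in A10-FMT against Con-FMT by 1.03 (0.0311), the former lost without HS+A10 replicate 1 (0.0999) and the latter under the other scalings (up to 0.0678). As a member of the large Cyp2c family, it may share reads with its relatives.

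In the transplant comparisons the same list gave 3 higher and 1 lower of 12 in A10-FMT against HS, and 3 higher and 2 lower in Con-FMT against HS (3 to 5 called under the other scalings). Among all tested genes 23.1% and 23.6% were called on the deposited RPKM. Under the other scalings 1114 to 1497 and 1853 to 2509 of all 10204 tested genes were called. Fdx1, the ferredoxin that feeds electrons to mitochondrial P450 enzymes such as Cyp27a1, rose by 0.52 (adjusted p = 0.00285) in the first and by 0.51 (0.00231) in the second, while Cyp27a1 itself gave -0.12 and -0.41 and was not called in either. Akr1c6 rose by 0.65 (adjusted p = 0.001) in A10-FMT against HS, and Scp2 fell by 0.33 (0.00899), the latter lost under the other scalings (up to 0.284). Amacr fell by 0.45 (adjusted p = 0.00326) in Con-FMT against HS. Por, the reductase of microsomal P450 enzymes such as Cyp7a1 and Cyp8b1, rose by 0.98 (adjusted p = 0.0226) in Con-FMT against HS, which was lost without Con-FMT replicate 3 (0.0921).

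Several of FXR's other target genes were called in comparisons in which Nr0b2 was not. Of 8 tested, 4 rose and 0 fell in HS against Con, 0 rose and 4 fell in A10-FMT against HS, and 0 rose and 5 fell in Con-FMT against HS. Their median changes were 0.46, -0.73 and -0.62, beside 0.14, -0.16 and -0.12 over all genes. The 8 were listed as genes under FXR or SHP, so they need not all move in 1 direction. Slc10a1, which is 1 of them, gave 0.35 in HS against Con and 0.25 in A10-FMT against HS, and was called in neither. Under the other scalings 2 to 4, 2 to 3 and 4 to 5 of the 8 were called. Among all tested genes the called shares in these comparisons were 17.7%, 23.1% and 23.6% on the deposited RPKM. Under the other scalings 876 to 2175, 1114 to 1497 and 1853 to 2509 of all 10204 tested genes were called. Abcb4, the phospholipid flippase of bile, read 36, 33 and 34.7 RPKM in Con and 151, 115 and 80.7 RPKM in HS, a rise of 1.67 (adjusted p = 8.15e-05). Apoc2, an activator of lipoprotein lipase, rose by 1.18 (adjusted p = 0.00249) and Sdc1, a heparan sulfate proteoglycan, by 0.52 (0.0109, up to 0.0589 under the other scalings and 0.0513 without Con replicate 1). Abcb11, the bile salt export pump, read 87.7, 106 and 99 RPKM in HS, 57.1, 68.5 and 48 RPKM in A10-FMT and 52.2, 59 and 53.2 RPKM in Con-FMT, and fell by 0.75 (adjusted p = 0.00176) and 0.82 (0.000603) in the transplant groups. Sdc1 fell by 0.83 (adjusted p = 0.000704) and Apoc2 by 0.71 (0.025) in A10-FMT against HS, the latter lost under the other scalings (up to 0.14). In Con-FMT against HS, Slc51b, a subunit of the basolateral bile acid exporter that was low throughout (1.97 to 3.32 RPKM in HS and at most 1.33 in Con-FMT), fell by 1.24 (adjusted p = 0.00841), and Osgin1 fell by 1.25 (0.0112), which was lost without HS replicate 1 (0.0518). In HS+A10 against HS, where Nr1h4 was called, 0 of 8 were, against 7.32% of all tested genes. At an unadjusted p under 0.05 in limma there were 4, for which no share over all genes was computed.

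Of 12 tested regulators of Cyp7a1 or Cyp8b1, 5 rose in HS against Con: Rxra, the partner of FXR, by 0.35 (adjusted p = 0.00521), Nr5a2 (LRH-1) by 0.43 (0.0187), Klb, the coreceptor for the gut hormone FGF15, by 0.51 (0.0226), and 2 others. This count was between 0 and 6 under the other scalings and 1 on 2 libraries each of Con and A10. Among all tested genes 17.7% were called in HS against Con on the deposited RPKM, 15.9% as higher. Under the other scalings 876 to 2175 of 10204 were called, and on 2 libraries each of Con and A10 700 of 10205. Hnf4a, which encodes HNF4, rose by 0.53 (adjusted p = 0.00212) in Con-FMT against HS, where Cyp8b1 fell, and was lower in A10-FMT than in Con-FMT by 0.70 (0.000363). Its values were 177, 178 and 197 RPKM in Con-FMT and 118, 140 and 126 RPKM in HS. Foxo1 rose in both transplant groups against HS, by 0.29 (adjusted p = 0.0139, and 0.0574 without A10-FMT replicate 3) and 0.59 (0.000115). Fgfr4, the receptor for FGF15, fell in HS+A10 against HS by 0.55 (adjusted p = 0.0113), from 17.6, 19.9 and 20.3 RPKM to 11.1, 15.2 and 12.5 RPKM, and in Con-FMT against HS by 0.37 (0.0266), calls that were lost without HS+A10 replicate 1 (0.0667) and under the other scalings (up to 0.169). Nr1i3 (CAR) rose in HS+A10 against HS by 0.99 (adjusted p = 0.0205) and in A10-FMT against HS by 0.67 (0.0481), calls lost without HS+A10 replicate 1 (0.0978) and without HS replicate 3 (0.176).

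**Figure D4:**
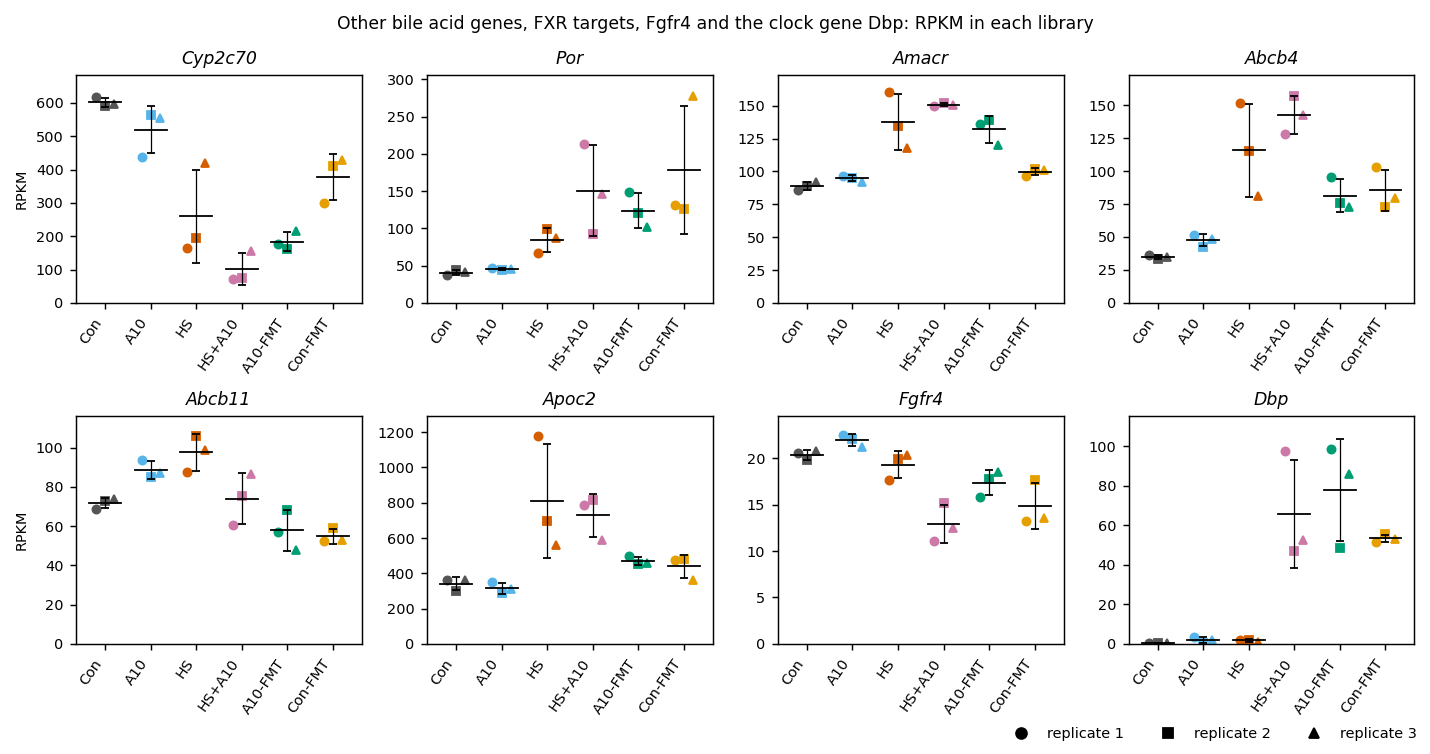
RPKM in each library (vertical axes from 0) of genes around the pathway: Cyp2c70, Por, Amacr, the FXR targets Abcb4, Abcb11 and Apoc2, the FGF15 receptor Fgfr4, and Dbp; lines mark means and bars the SD (n = 3). In each of the other 5 groups, A10 included, Cyp2c70 lies below and Abcb4 above all Con libraries, and Dbp is near 0 in Con, A10 and HS.

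Clock genes separated the groups in another way. Dbp, a transcription factor that activates Cyp7a1 and swings with the hour, read 0.58 to 0.68 RPKM in Con, 0.36 to 3.41 in A10 and 1.17 to 2.22 in HS, but 47.3 to 97.5 in HS+A10, 51.8 to 55.5 in Con-FMT and 48.8 to 98.8 in A10-FMT. Arntl ran the other way, at 8.84 to 13.4 RPKM in the first 3 groups and 0.7 to 4.92 RPKM in the others, and Nr1d1 read 1.22 to 3.68 RPKM in Con and 10.03 to 58.5 RPKM elsewhere. Of 15 tested clock genes, 13 were called in A10-FMT against HS, 11 in Con-FMT against HS and 13 in HS+A10 against HS, but 4 in HS against Con (2 without Con replicate 2 or HS replicate 2) and 2 in A10 against Con (0 without Con replicate 1, Con replicate 3 or A10 replicate 3, and 0 on 2 libraries each of Con and A10). Among all tested genes the called shares with all 18 libraries were, in the same order, 23.1%, 23.6%, 7.32%, 17.7% and 0.0686%. The groups in which Dbp was high were those in which Cyp27a1 lay below all Con libraries. The calls of Nr1h4 and Cyp27a1 in HS+A10 and of Cyp8b1, Hsd3b7 and Cyp27a1 in Con-FMT are all comparisons across this split. The same is true of the pathway list calls in A10-FMT, Con-FMT or HS+A10 against HS, those of FXR targets included. The part of the split in these calls was not tested. The sources used here do not give the hour at which livers were taken.

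Genes whose 6 group means ran most like those of 4 of the genes were sought among all other tested genes, by the root mean square difference of centred log2 values. For Cyp7a1 they were Tsku (0.15), Mup21 (0.17, one of a family of near-identical urinary protein genes) and Dnaic1 (0.18). For Cyp8b1 they were Stx2 (0.07), Calcrl (0.07) and Tmcc3 (0.08), for Nr1h4 Oxld1 (0.04), Cdk18 (0.07) and Ddx59 (0.07), and for Nr0b2 Bin2 (0.06), Slc11a1 (0.06) and Mob3a (0.07). The members' own root mean square deviations over the groups were 0.48, 0.29, 0.20 and 0.21. Tsku, the closest match of Cyp7a1, had group levels, as means on the log2(RPKM + 1) scale turned back to RPKM, of 25.6 RPKM in Con, 12.4 in A10, 19.2 in HS, 15.5 in HS+A10, 28.8 in A10-FMT and 28 in Con-FMT.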

How the data were processed

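Liver mRNA was enriched with oligo(dT) beads and sequenced by the authors on an Illumina HiSeq instrument. By the study's methods, reads were mapped to reference genes with SOAPaligner, while the submitters' processing notes name Bowtie 0.12.2 and mm10. The authors turned read numbers into RPKM values and deposited these for 19057 genes and 18 libraries, without counts, so the depth is unknown and no counting interval was computed. The steps between the low values of 227 genes put the libraries' relative depth between 0.947 and 1.08. In 26 rows the symbol looks like a date, and 3 symbols occur more than once; none is one of the 10 genes.

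A pseudocount of 1 was added before taking log2 of the RPKM. The 10204 genes whose mean reached 1 RPKM were fitted in limma 3.58.1 (R 4.3.3), with 1 mean for each of the 6 groups and a variance trend. Two-sided p-values were corrected over all tested genes after Benjamini and Hochberg, and called means a corrected p below 0.05. A fold change on this scale understates the change of low genes. An exact permutation test of 3 libraries against 3 cannot go below p = 0.1 and was not used. The study's own test, DEGseq, was not run, as it does not model how replicates vary.

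The 10 genes, the pathway, clock and marker lists and the tests were chosen with earlier results of these data known. Statistics in full are given for genes called and for Cyp7a1 and Nr1h4; of each pathway list, up to 3 called genes per comparison with the smallest adjusted p are named, and for the clock Dbp, Nr1d1 and Arntl. For Cyp7a1, Cyp8b1, Nr1h4 and Nr0b2 the 3 other genes nearest in centred group means are named. Some further values are given for genes of the 10 after they were seen. Libraries of the same replicate number were not treated as pairs. Same-numbered deviations correlated between -0.10 and 0.26, and in 0 of 9 comparisons did all exceed 0.1. In HS+A10 against HS they were 0.23, -0.03 and 0.26. Libraries of unlike number were not correlated, so a link by replicate number was not tested. Alternatives were another pseudocount, other filters, 3 other scalings, a replicate block, no variance trend, the study's threshold, fewer libraries in the fit and each library left out in turn. Con and A10 on 2 libraries each was added after the data were seen. Positions came from GENCODE M21 (GRCm38), figures and sequence matches from Python 3.11.15 with matplotlib 3.10.9.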

Additional observations from a re-analysis of the deposited data

How the results depend on the processing

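Each count of called genes among the 10 was recomputed under every alternative. For all 6 groups together (4 called) it was 2 without a filter and 2 on 2 libraries each of Con and A10. In Con-FMT against HS (2 called) it was 1 without a filter, at a mean of at least 5 RPKM, with median scaling, with 12 libraries in the fit and on 2 libraries each of Con and A10, and 0 with the study's threshold and with only the compared groups fitted. In HS+A10 against HS (1 called) it was 0 with a pseudocount of 0.1, without a filter, with the study's threshold, with only the compared groups fitted and on 2 libraries each of Con and A10, and 2 with quantile normalization. With quantile normalization 1053 of all 10204 tested genes were called there. In Con-FMT against Con (1 called) the count was 0 without a filter, with the study's threshold and on 2 libraries each, and 2 with only the compared groups. With only the compared groups 1806 of all 10098 tested genes were called there. In A10-FMT against HS (0 called) and A10-FMT against Con (0 called) the count was 1 under quantile normalization, median scaling and scaling without the 10 most abundant genes, and 1 for the latter comparison with only the compared groups. Under these scalings 1114 to 1497 of all 10204 tested genes were called in the former comparison and 1682 to 1857 in the latter. With only the compared groups 1278 of 10033 were called in the latter. In A10-FMT against Con-FMT (0 called) the count was 2 under quantile normalization and 2 under median scaling, where 2118 and 2260 of all 10204 tested genes were called. In HS+A10 against A10 (2 called) the count was 0 at the study's threshold. The other counts of this section are given without a share over all genes. Whether the replicate numbers pair the libraries is not known. With the replicate block the count in HS+A10 against HS was 0, and the other counts over the 10 genes stayed within 1.5 times of their values. Leaving out 1 library at a time gave 3 to 6 for all groups, 0 to 0 for HS against Con, 0 to 1 for A10-FMT against HS, 1 to 2 for Con-FMT against HS, 0 to 1 for A10-FMT against Con-FMT, 0 to 2 for HS+A10 against HS, 0 to 0 for A10 against Con, 0 to 1 for A10-FMT against Con, 0 to 2 for Con-FMT against Con, 1 to 3 for HS+A10 against A10 and 0 to 1 for the difference with AOS. Changes near 0 turned direction. For Cyp7a1 this was so in HS+A10 against HS (0.0096 with a pseudocount of 0.1, 0.012 with quantile normalization, 0.020 with median scaling, 0.030 without the 10 most abundant genes, and -0.81 to 0.62 with a library left out), in Con-FMT against Con (0.0093 without the 10 most abundant genes, 0.0022 on 2 libraries each of Con and A10, -0.24 to 0.37 with a library left out), in HS against Con (-1.22 to 0.22 with a library left out, the latter without HS replicate 1) and in Con-FMT against HS (-0.22 to 1.21, the former without HS replicate 1). For Nr1h4 it was so in HS against Con (-0.097 with quantile normalization, -0.14 with median scaling, -0.058 to 0.12 with a library left out), in A10 against Con (-0.13 to 0.0037), in Con-FMT against HS (-0.067 to 0.15) and in Con-FMT against Con (-0.022 to 0.17), the last 3 each with a library left out. None of these was called. Where the number of genes or libraries was not itself changed, the cause was not tested. Of 171 calls of list genes, 0 turned direction under the scalings, the block or a left-out library.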
